A study of Mus musculus with 35 samples.

Results

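The genes of the mitochondrial protein import translocases were followed in interscapular brown adipose tissue (iBAT) through a cold exposure time course. They were chosen by name, as the protein-coding genes whose symbol begins with Tomm or Timm followed by a number, with pseudogenes left out. The count table held 25 such genes among 55421, of which 32079 had at least 1 count. Whole iBAT of male C57BL/6J mice aged 9 to 10 weeks was sequenced as 35 libraries, each from 1 mouse. The control group was 5 mice kept at the room temperature of the colony (24 °C). The other groups were 5 mice each, placed in an incubator at 6 °C for 6 hours or for 1, 2, 3, 4 or 5 days. No group carried a transgene or received a drug. The cold-exposed mice were also kept alone, without nesting material and in static cages, so temperature and housing cannot be told apart in any comparison with room temperature. Reads came from the 3′ ends of polyadenylated transcripts, levels are CPM, the counts of a gene as a share of its library scaled by the TMM method, and values are compared within a gene across mice, not between genes.

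Nearly all mitochondrial proteins are encoded in the nucleus, made in the cytosol and imported as precursors. The TOM complex of the outer membrane is the common entry gate, with receptors that recognise precursors and a beta-barrel pore. From there, small TIM chaperones carry hydrophobic proteins through the intermembrane space, the TIM22 complex inserts metabolite carriers such as uncoupling protein 1 (UCP1) into the inner membrane, and the TIM23 complex with its motor passes presequence-bearing proteins into the inner membrane and matrix. Brown adipocytes are rich in mitochondria, and their heat production depends on such imported proteins.

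Of the 25 genes, 21 had enough counts to be tested and 4 did not. Timm8a1, a small TIM chaperone, had 2 to 18 counts in a library. Timm8a2, its copy, had 5 counts in all libraries together, the receptor-like Tomm20l had 1, and Tomm6, a small TOM subunit, had 10. Of the 76-base words in its 3′ ends, 51.7% also occur in Gm21981, so the count of Tomm6 may miss reads that map to both. Timm23, the channel subunit of TIM23, was tested but is uncertain for the same reason, since 95.5% of its 3′-end words occur in other annotated genes. Smaller shares were found for Timm10b (17.0%), Timm17a (6.9%) and Tomm20 (5.2%), and none for the other tested genes.

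Libraries held 3846016 to 6047247 counts, of which genes of the mitochondrial genome took 33.6% to 46.2%. The tissue label was checked against Ucp1, the defining gene of brown adipocytes, whose mean was 1921 CPM at room temperature and 7265 CPM after 6 hours of cold. Of 5 brown adipocyte markers, Ucp1 among them, 1 was called higher and 1 lower after 6 hours (all genes 21.5% and 21%). Markers of skeletal muscle (8 genes, summed level 2.58 to 1314 CPM over all mice) and of macrophages (6 genes, 47.5 to 161 CPM) varied between mice, and B cell markers stayed at or below 1.98 CPM. In whole tissue, a change in the share of a cell type and a change in RNA per cell cannot be told apart. The cold 2 days mouse numbered 1 correlated least with its own group (r = 0.948). It was the lowest of its group for Timm10 and Tomm20, where it stood far from the other mice. It was also the lowest for Timm8b, Timm9, Timm13, Timm17a, Timm21, Timm23, Timm29, Tomm5, Tomm7, Tomm40 and Tomm40l, and not for the other tested genes. Its share of counts from the mitochondrial genome, 34.6%, was the lowest of its group as well.

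The promoters of the genes were searched for motifs of known regulators of mitochondrial genes, and no motif searched was shared by all the genes that rose. RefSeq promoter windows (GRCm38.p6, 250 bases before to 50 after a transcript start) were found for 22 of the 25 genes. The core site of the ETS factor GABP, a regulator of nuclear genes for mitochondrial proteins (CCGGAAG, either strand), occurred in the windows of 9 of these 22 genes (40.9%), against 9.93% of 27025 genes with a window. The core holds a CG, and the 27025 genes were not matched to the 22 for base composition, so the 2 shares are not like for like. The 9 genes were Timm10, Timm10b, Timm23, Timm29, Timm8a2, Timm8b, Tomm22, Tomm34 and Tomm70a. Among the 7 genes that were higher at every cold duration (described further on), 4 held it, and among the other 15 genes, 5 did, a difference that was not tested. The site of the estrogen-related receptors (AAGGTCA) occurred in 3 of 22 windows (13.6%, against 5.38% of all genes), in Timm23, Timm44 and Timm8b. The YY1 site AAGATGGCG was in the window of Timm50 alone (1.64% of all genes), and the NRF1 palindrome, the cAMP response element TGACGTCA and the ATF4 site TGATGNAA were in none (1.07%, 2.03% and 4.51% of all genes). The NRF1 palindrome was searched as an exact word only, so windows that hold other forms of the NRF1 site were not counted. Whether such forms occur in these promoters was not tested. All of these motif counts are matches of letters in a window and do not show binding. The 250 bases before the start are printed for 3 genes that rose at every duration and hold a GABP core there, and for the paralogs Timm17a and Timm17b, whose ratio shifted in the cold and which hold none of these motifs. Capitals mark a GABP core or, in Timm8b, the receptor site as well.
Timm8b (chr9:50603651-50603900, + strand): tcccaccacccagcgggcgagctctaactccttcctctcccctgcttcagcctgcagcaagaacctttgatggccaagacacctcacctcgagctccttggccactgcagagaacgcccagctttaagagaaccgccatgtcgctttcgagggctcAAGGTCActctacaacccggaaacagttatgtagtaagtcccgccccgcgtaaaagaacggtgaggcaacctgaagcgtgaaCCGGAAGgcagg
Timm10 (chr2:84826771-84827020, + strand): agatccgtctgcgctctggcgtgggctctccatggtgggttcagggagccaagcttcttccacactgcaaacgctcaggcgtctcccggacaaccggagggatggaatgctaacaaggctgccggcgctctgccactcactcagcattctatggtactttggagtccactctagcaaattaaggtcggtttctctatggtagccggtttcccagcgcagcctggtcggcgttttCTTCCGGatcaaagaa
Tomm22 (chr15:79670618-79670867, + strand): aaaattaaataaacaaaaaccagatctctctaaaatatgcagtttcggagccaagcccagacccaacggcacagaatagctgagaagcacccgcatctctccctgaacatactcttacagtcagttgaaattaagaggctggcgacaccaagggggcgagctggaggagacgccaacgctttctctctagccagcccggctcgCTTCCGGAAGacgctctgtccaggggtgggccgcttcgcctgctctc
Timm17a (chr1:135313738-135313987, - strand): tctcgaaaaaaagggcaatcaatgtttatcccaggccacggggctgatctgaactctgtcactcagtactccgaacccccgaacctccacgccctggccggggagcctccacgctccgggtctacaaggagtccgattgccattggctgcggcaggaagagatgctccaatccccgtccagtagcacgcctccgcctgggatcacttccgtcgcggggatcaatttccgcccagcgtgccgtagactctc
Timm17b (chrX:7899086-7899335, + strand): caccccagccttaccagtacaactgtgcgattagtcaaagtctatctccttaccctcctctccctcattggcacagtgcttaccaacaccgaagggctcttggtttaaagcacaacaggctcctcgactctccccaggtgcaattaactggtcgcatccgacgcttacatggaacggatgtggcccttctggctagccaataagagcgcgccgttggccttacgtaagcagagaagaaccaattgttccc
In Timm8b the GABP core began 12 bases before the start and the receptor site 94 bases before it. The core began 16 bases before the start in Timm10 and 47 bases before it in Tomm22, where cores on both strands overlap.

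Against room temperature, many of the tested genes were higher in the cold from the first time point and few were lower. After 6 hours, 11 of 21 were called higher and 2 lower (edgeR adjusted p below 0.05), where 21.5% of the 10593 genes tested were called higher and 21% lower. Their median log2 fold change was 0.44, against -0.03 over all genes. After 1 day, 10 were higher and 1 lower (all genes 18.9% and 17.8%), after 2 days 9 and 0 (16.4% and 14.7%), and after 3 days 8 and 0 (18.3% and 15.5%). After 4 days, 8 were higher and none lower (19.4% and 18.6%), and after 5 days 12 were higher and none lower (20.2% and 18.6%), with a median of 0.42 against -0.02. In between, the medians were 0.17 to 0.32. All 6 comparisons share the same 5 control mice, so their counts are not independent of each other. Scaling by library size alone moved the median of all genes to between -0.25 and -0.15, and then 9 genes were higher and 3 lower after 6 hours, 7 and 4 after 1 day, 5 and 2 after 2 days, 6 and 1 after 3 days, 7 and 1 after 4 days, and 7 and 1 after 5 days.

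**Figure D1:**
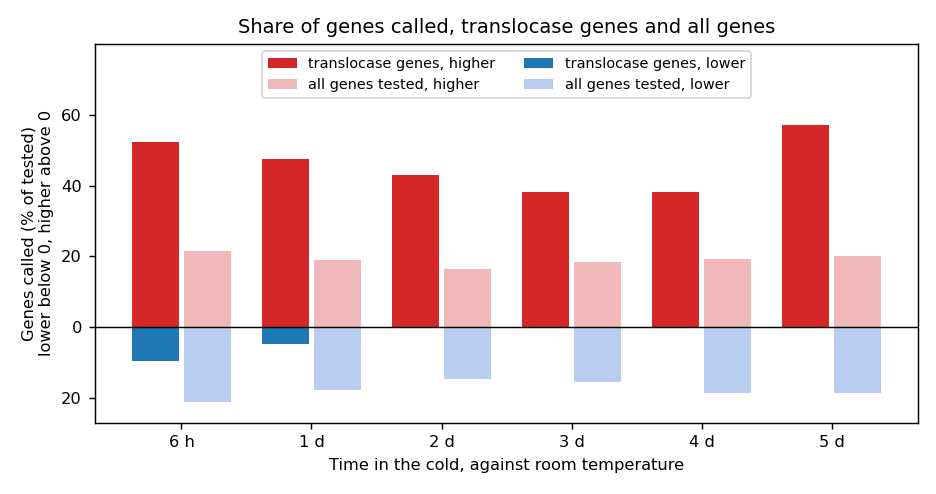
Share of the 21 tested translocase genes (full colour) and of all genes tested (pale) called higher (upward bars) or lower (downward bars) than room temperature, in percent, by time in the cold. The translocase genes stood at 38.1% to 57.1% higher at each duration, where all genes stood at 16.4% to 21.5%.

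The genes fell into a few courses over time. At every duration 7 genes were higher, which were Tomm20, Tomm22, Timm10, Timm10b, Timm8b, Timm22 and Timm17a. A further 6 were higher at 1 duration or more (Tomm40, Tomm70a, Tomm5, Timm9, Timm29 and Timm50). Timm21 was called lower after 6 hours, and Tomm40l after 6 hours and 1 day. The other 6 were called at no duration (Tomm7, Tomm34, Timm13, Timm17b, Timm23 and Timm44). Groups of mice did not overlap, with all cold mice above all controls, for 9 genes at 6 hours (15.5% of all genes), 8 at 1 day (13.2%), 5 at 2 days (11%), 5 at 3 days (11.6%), 7 at 4 days (13.3%) and 6 at 5 days (13.4%). All cold mice lay below all controls for Timm21 and Tomm40l after 6 hours (13% of all genes) and for Tomm40l after 1 day (11.9%). All 42 calls of the 7 genes held in the fits that left out 1 mouse at a time.

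**Figure D2:**
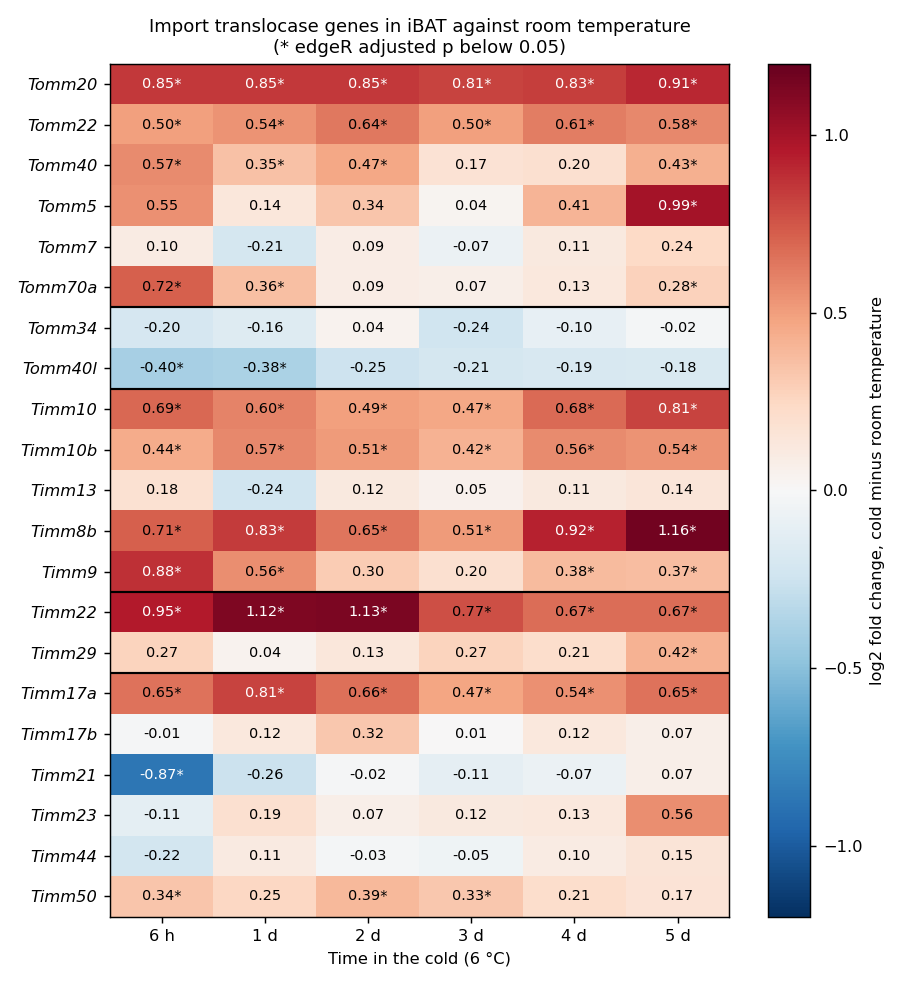
Log2 fold change of each tested gene (rows, grouped from the top as TOM complex, TOM-related, small TIM, TIM22 and TIM23 with Timm44) against room temperature at each time in the cold (columns), with an asterisk where the edgeR adjusted p was below 0.05. Rows such as Tomm20 (0.81 to 0.91) and Timm22 (0.67 to 1.13) stayed red throughout, and Timm21 was blue after 6 hours (-0.87).

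In the TOM complex, both receptors and the pore were higher in the cold at some durations, and whether their courses differed was not tested. Of its 6 tested genes, 4 were higher at 6 hours and 1 day, 3 at 2 days, 2 at 3 and 4 days, and 5 at 5 days. Over all genes, 16.4% to 21.5% were higher at a duration. Tomm20 (chr8:126930667-126945844), the receptor for presequences, had low counts (20 to 78 in a library). Its controls stood at 6.20, 7.98, 4.37, 5.61 and 4.37 CPM. After 6 hours the mice stood at 11.6, 9.04, 13.0, 8.04 and 10.6 CPM, all above the controls, with a 1.80-fold rise (log2 fold change 0.85 ± 0.20 SE, edgeR adjusted p = 0.0028). At 5 days they stood at 7.76, 13.5, 10.3, 8.46 and 13.8 CPM, where 1 mouse lay within the control range, and the log2 fold change was 0.91 ± 0.23 (SE, edgeR adjusted p = 0.00409). The change of Tomm20 lay between 0.81 and 0.91 at every duration.

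Tomm22, the central receptor, rose from 57.3 ± 6.22 CPM (SD, n = 5) to 82.0 ± 12.1 CPM after 6 hours and stood at 80.2 to 89.6 CPM (group means) from then on, with no overlap between cold and control mice at any duration. Its log2 fold changes were 0.50 after 6 hours (edgeR adjusted p = 0.00199) and 0.58 after 5 days (edgeR adjusted p = 0.000554). Tomm70a, the receptor for carrier precursors, peaked early. Its controls stood at 52.8 to 64.8 CPM, and the mice stood at 91.4, 95.5, 91.2, 85.3 and 128 CPM after 6 hours, a log2 fold change of 0.72 ± 0.12 (SE, edgeR adjusted p = 7.79e-05). The change was 0.36 after 1 day and was not called from 2 to 4 days (0.07 to 0.13). After 5 days it was 0.28 (edgeR adjusted p = 0.0392), a call that was lost without any 1 of 6 of the 10 mice.

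Tomm40, the pore itself, went from 36.1 ± 2.79 CPM (SD, n = 5) to 54.3 ± 6.04 CPM after 6 hours, a log2 fold change of 0.57 (edgeR adjusted p = 0.000279). It was also higher after 1 day (0.35), 2 days (0.47) and 5 days (0.43), and had changes of 0.17 and 0.20 that were not called after 3 and 4 days. The call after 1 day was lost without any 1 of 7 of the 10 mice. Tomm5, a small subunit at the pore, was called only in the comparison after 5 days. Its controls stood at 7.75, 14.0, 6.11, 8.41 and 7.10 CPM, and the mice after 5 days at 12.5, 16.1, 15.1, 26.2 and 17.0 CPM. The second control lay above the lowest of these, and the log2 fold change was 0.99 ± 0.23 (SE, edgeR adjusted p = 0.00211). Tomm7, another small subunit, was not called at any duration, with changes between -0.21 and 0.24 and group means of 171 to 233 CPM.

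Outside the core complex, Tomm40l, a paralog of the pore, was called lower after 6 hours and 1 day. Its controls stood at 29.8, 29.6, 28.2, 27.4 and 32.8 CPM. The mice after 6 hours stood at 22.9, 22.2, 20.2, 25.5 and 22.7 CPM, all below the controls (log2 fold change -0.40 ± 0.11 SE, edgeR adjusted p = 0.00655). It was lower again after 1 day (-0.38, edgeR adjusted p = 0.0135) and not called later (-0.25 to -0.18). A return toward the controls is not shown, since Tomm40l was not called in the direct comparisons of 1 or 5 days with 6 hours. Scaling by library size alone called it lower at every duration. Tomm40l shares 3304 exon bases with Nr1i3 on the opposite strand, a gene with 2 counts in all libraries together against 4346 for Tomm40l. The 3′ ends of other members overlap opposite-strand genes with more counts, Timm8b with Nkapd1 (81 exon bases, 2163 counts against 14285 for Timm8b) and Tomm70a with Nit2 (41 exon bases, 2527 counts against 11969 for Tomm70a). Since the strand setting of the counting is not given, reads of the genes of such a pair cannot be told apart in the overlap. Tomm34, a cytosolic cochaperone of precursors, was not called (-0.24 to 0.04).

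**Figure D3:**
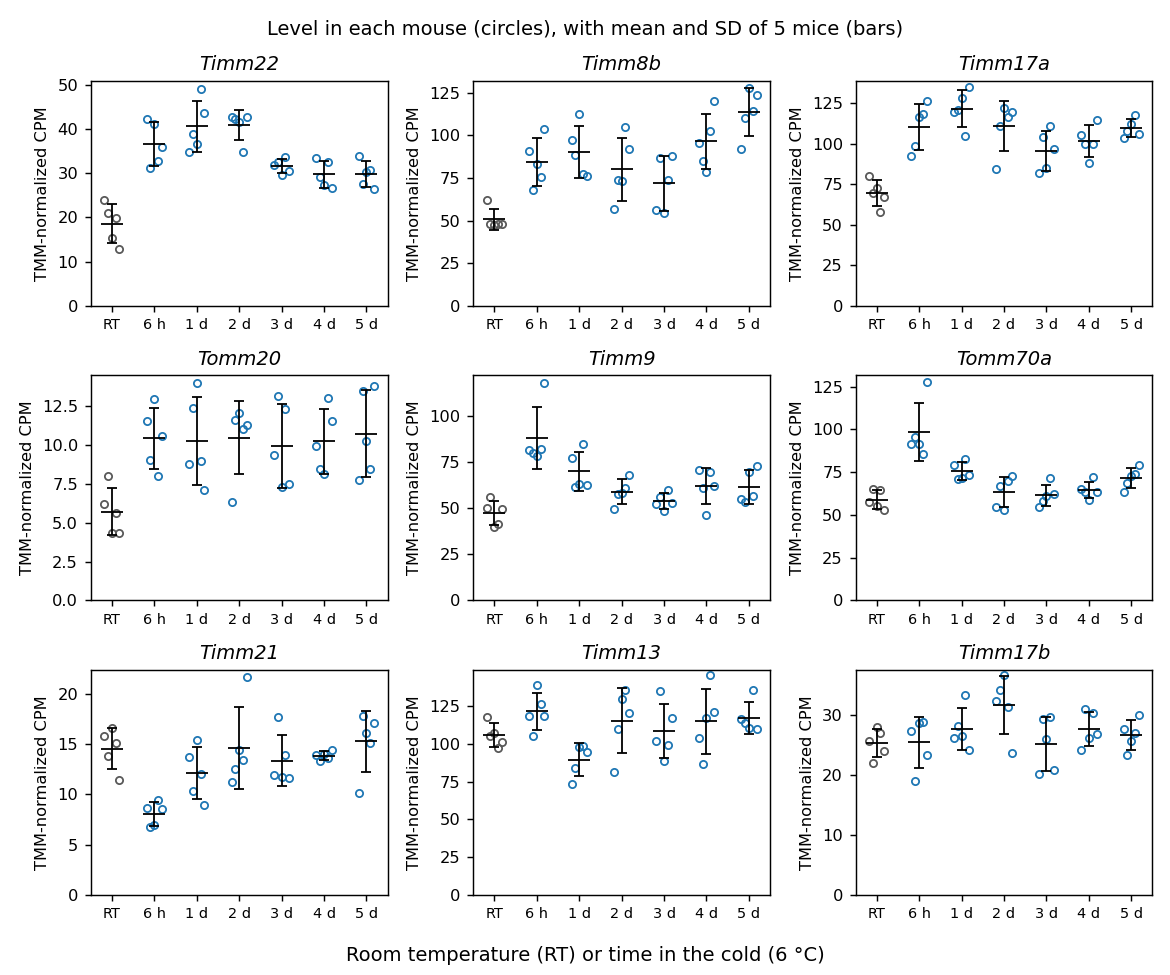
TMM-normalized CPM (vertical axes, each from 0) of 9 genes in every mouse (circles) at room temperature (RT, grey) and at each time in the cold (blue), with bars for the mean and SD of 5 mice. Timm22, Timm8b, Timm17a and Tomm20 stayed up through the course, Timm9 and Tomm70a were highest after 6 hours, and Timm21 was lowest then, at 6.72 to 9.46 CPM against 11.5 to 16.6 CPM in the controls.

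Among the small TIM chaperones, each gene tested except Timm13 was higher at 2 durations or more. Of the 5 tested, 4 were higher after 6 hours, 1 day, 4 days and 5 days, and 3 after 2 and 3 days (16.4% to 21.5% of all genes at a duration). Timm8b (chr9:50603910-50605320), a relative of Timm8a1, the known partner of Timm13, had the largest change of all translocase genes after 5 days. Its controls stood at 62.0, 48.1, 47.6, 47.8 and 48.2 CPM, and after 5 days the mice stood at 92.0, 110.1, 128, 115 and 124 CPM. Every one of these mice was above every control, a 2.23-fold rise (log2 fold change 1.16 ± 0.11 SE, edgeR adjusted p = 4.64e-07). After 6 hours the rise was 1.64-fold, with mice at 67.9 to 104 CPM.

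Timm9 and Timm10 encode the partners of the main chaperone hexamer for carriers, and their ratio, given further on, passed its test only after 5 days. Timm9 (chr12:71123173-71136684) stood at 50.2, 55.7, 39.5, 41.6 and 49.3 CPM in the controls and at 81.4, 79.7, 78.2, 82.0 and 118 CPM after 6 hours (log2 fold change 0.88 ± 0.13 SE, edgeR adjusted p = 3.33e-05). All of these mice were above the controls, and the mouse numbered 5 stood apart from the other 4. Timm9 was also higher after 1 day (0.56), was not called after 2 and 3 days (0.30 and 0.20), and was called again after 4 and 5 days (0.38 and 0.37), calls that were each lost without any 1 of 4 of the 10 mice. Timm10 (chr2:84826997-84830213) was higher throughout, from 37.9 ± 4.12 CPM (SD, n = 5) in the controls to 61.8 ± 3.35 CPM after 6 hours and 66.6 ± 3.24 CPM after 5 days. Its log2 fold changes were 0.69 after 6 hours and 0.81 after 5 days (edgeR adjusted p = 8.87e-06).

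Timm10b, which docks the chaperones on TIM22, was higher at every duration, by 0.42 to 0.57 on the log2 scale, with 17.0% of its 3′-end words shared with Gm45799. That gene had 18 counts in all libraries, against 9598 for Timm10b. Timm13 was not called against room temperature at any duration, with group means from 89.7 CPM after 1 day to 122 CPM after 6 hours and 106 CPM in the controls. The untested Timm8a1 had means of 1.06 CPM in the controls and 1.39 to 2.07 CPM in the cold groups.

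In the TIM22 translocase, Timm22 rose and its partner Timm29 was called once. Timm22 (chr11:76406952-76416292), the channel that inserts carriers into the inner membrane, stood at 24.0, 21.03, 15.3, 19.8 and 12.9 CPM in the controls. After 6 hours the mice stood at 42.3, 31.1, 41.0, 32.6 and 35.9 CPM, with no overlap (1.93-fold, log2 fold change 0.95 ± 0.15 SE, edgeR adjusted p = 7.9e-05). The group means were 40.6 CPM after 1 day and 40.8 CPM after 2 days, at 2.17-fold and 2.18-fold, and 31.6, 29.8 and 29.7 CPM after 3, 4 and 5 days. No cold mouse fell into the control range at any duration (lowest cold value 26.4 CPM). Timm29, a subunit of the same complex, went from 17.1 ± 1.93 to 22.8 ± 3.19 CPM (SD, n = 5) at 5 days (log2 fold change 0.42, edgeR adjusted p = 0.0196), a call that was lost without either of 2 of the 10 mice. Its changes at the other durations were 0.04 to 0.27 and were not called.

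In the TIM23 translocase and its motor, only Timm17a was higher at every duration. Of the 6 genes tested, 2 were higher and 1 lower after 6 hours (all genes 21.5% and 21%). After 1, 4 and 5 days 1 was higher, close to the shares over all genes (18.9%, 19.4% and 20.2%). After 2 and 3 days 2 were higher (all genes 16.4% and 18.3%). Timm17a (chr1:135295213-135313778), a core subunit beside the channel, stood at 57.7 to 79.8 CPM in the controls, with a mean of 69.4 CPM. The cold groups had means of 110.2 CPM after 6 hours, 122 CPM after 1 day and 109 CPM after 5 days, each with all 5 mice above the controls. Its log2 fold change was 0.65 after 6 hours (edgeR adjusted p = 0.000155) and 0.65 after 5 days (edgeR adjusted p = 5.86e-05). The paralog Timm17b had changes of -0.02 to 0.32, none called.

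Timm21, a subunit that links TIM23 to TOM and to the respiratory chain, was lower early. The controls stood at 15.9, 13.8, 16.6, 15.2 and 11.5 CPM, and the mice after 6 hours at 8.67, 6.72, 6.95, 9.46 and 8.55 CPM, all below the controls. The level was 0.547 times that of the controls (log2 fold change -0.87 ± 0.16 SE, edgeR adjusted p = 0.000297). From 1 day on its changes were -0.26 to 0.07 and were not called. Timm50, the presequence receptor of TIM23, was higher after 6 hours (0.34, edgeR adjusted p = 0.0147), 2 days (0.39) and 3 days (0.33). Its call after 2 days was lost without either of 2 of the 10 mice, and that after 3 days without any 1 of 5. Timm44, the anchor of the motor, was not called against room temperature (-0.22 to 0.15), nor was Timm23 (-0.11 to 0.56), with 7 to 37 counts in a library.

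Ratios of related genes within a mouse do not depend on library scaling except through the 1 CPM added to each gene. Of 30 tests (5 pairs, 6 durations), 18 passed at a Benjamini-Hochberg adjusted p below 0.05 in exact two-sided permutation tests, whose smallest possible p with 5 against 5 mice is 0.00794. The log2 ratio of Timm17a to Timm17b was 1.61, 1.62, 1.35, 1.08 and 1.44 in the controls. After 6 hours it was 1.72, 2.31, 1.98, 2.00 and 2.39, above every control (difference 0.66, exact permutation p = 0.00794, adjusted p = 0.0149). It passed with no overlap after 1, 3, 4 and 5 days as well (differences 0.68, 0.48, 0.42 and 0.58). After 1 day this was by a near tie, with the lowest cold mouse at 1.621 and the highest control at 1.62. After 2 days the difference was 0.36 (exact permutation adjusted p = 0.0893), and 0.46 without the mouse numbered 1 (exact permutation adjusted p = 0.0265).

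The ratio of Tomm40 to Tomm40l shifted toward Tomm40 at every duration. It was 0.30, 0.43, 0.34, 0.26 and 0.07 in the controls and 1.05, 1.24, 1.37, 0.97 and 1.46 after 6 hours, with a difference of 0.94 (exact permutation adjusted p = 0.0149). The differences after 1, 2, 4 and 5 days were 0.68, 0.69, 0.38 and 0.57 without overlap. After 3 days it was 0.36, with 4 of 5 mice above the controls (exact permutation adjusted p = 0.028). Leaving out any 1 of 7 of the 10 mice raised that value to 0.0529 or 0.056, with differences of 0.291 to 0.41. Fewer splits exist with 4 against 5 mice, so the smallest possible p is then higher, which adds to such a rise.

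The ratio of Timm13 to Timm8b fell at every duration without overlap. The controls were at 0.92, 1.11, 1.16, 1.00 and 1.06. After 1 day the mice were at -0.41, -0.07, -0.20, 0.35 and 0.30, and after 5 days at 0.34, 0.05, -0.21, 0.24 and -0.18. The differences were -1.05 and -1.001, and between -0.81 and -0.45 at the other durations (each exact permutation p = 0.00794, adjusted p = 0.0149). Timm9 to Timm10 passed only after 5 days, with controls at 0.58, 0.41, -0.04, 0.30 and 0.29 and mice at -0.32, -0.21, 0.01, -0.21 and 0.09. The difference was -0.44 (exact permutation adjusted p = 0.0397), and leaving out any mouse but 1 of the controls gave 0.0529 to 0.0794. The differences were then -0.49 to -0.367, and the higher smallest possible p of such fits applies here as well. Timm23 to Timm22 passed at no duration (exact permutation adjusted p of 0.0794 or above).

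**Figure D4:**
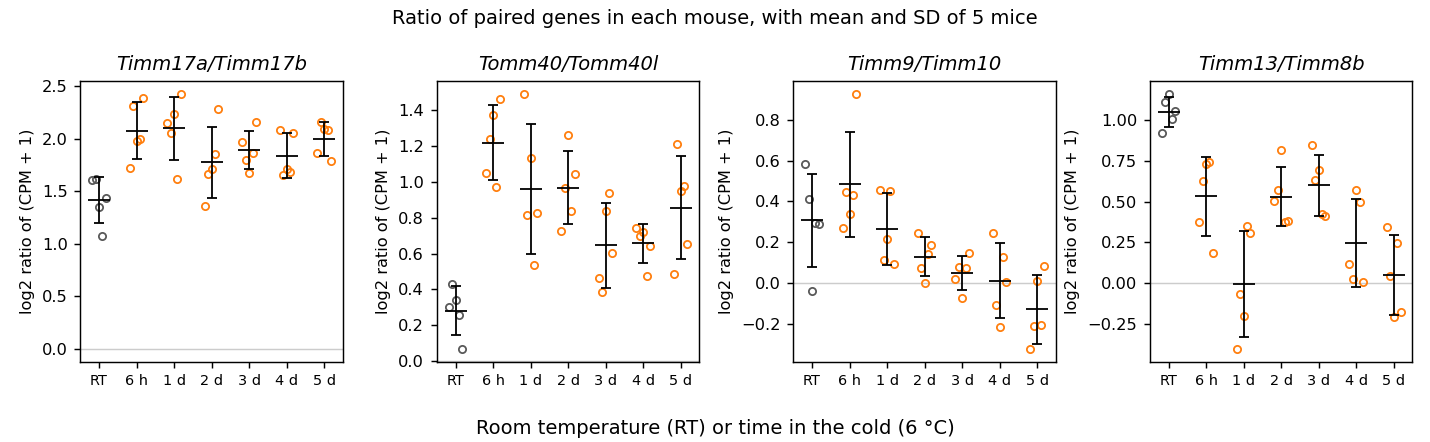
Log2 ratio of (CPM + 1) for 4 gene pairs in every mouse (circles) at room temperature (RT, grey) and at each time in the cold (orange), with bars for the mean and SD of 5 mice. The ratio of Timm13 to Timm8b lay at 0.92 to 1.16 in the controls and at or below 0.85 in every cold mouse.

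Cold durations were also compared with each other, to ask whether the early and late responses differed. After 5 days against 6 hours, 3 of the 21 genes were higher (19% of all genes) and 2 lower (16.9%). Timm21 rose 1.92-fold (log2 fold change 0.94 ± 0.19 SE, edgeR adjusted p = 0.000526), from 8.07 ± 1.18 to 15.3 ± 3.06 CPM (SD, n = 5). Timm44 (0.38) and Timm8b (0.45) were higher, and Timm9 (-0.51, edgeR adjusted p = 0.00458) and Tomm70a (-0.44, edgeR adjusted p = 0.00515) were lower. The groups did not overlap for Timm21 and Timm44 above (11.8% of all genes) and for Timm9 and Tomm70a below (11.6%). After 1 day against 6 hours, 2 genes were higher (9.19% of all genes) and 3 lower (7.75%). These were Timm21 (0.60) and Timm44 (0.33), and Timm13 (-0.43), Tomm7 (-0.32) and Tomm70a (-0.37), the last 3 without overlap (6.14% of all genes). Of these 5 calls, the one of Timm13 held without each mouse in turn, and the other 4 were each lost in 5 to 7 of 10 such fits.

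Mice of a group also varied together for some genes. Among 18 genes with a mean of at least 50 counts, deviations of log2 CPM from the group means over the 35 mice had a median correlation of 0.19 over 153 gene pairs, and 120 of the pairs were positive. The highest was between Timm8b and Tomm7 (0.73), Timm9 and Tomm70a were at 0.69, and the lowest was between Timm10b and Timm9 (-0.46). The mouse numbered 5 of the 6 hours group was the highest of its group for both Timm9 and Tomm70a and the lowest for Timm10b. It was also the highest for Timm8b, Timm17a, Tomm5, Tomm7, Tomm34 and Tomm40, and the lowest for Timm50. The translocase genes together took 0.285% of its nuclear counts, the highest share of the 35 libraries. Depth and RNA composition are shared by all genes of a library. Such correlations were not computed for other genes, so these values are given as a description only.

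Other genes of the import pathway were counted from 6 lists of 28 genes in all. After 6 hours, 9 were higher (32.1%, against 21.5% of all genes) and 3 lower (10.7%, against 21%). After 1 day, 10 were higher and 3 lower (35.7% and 10.7%, all genes 18.9% and 17.8%), after 2 days 10 and 4 (35.7% and 14.3%, all genes 16.4% and 14.7%), and after 3 days 11 and 3 (39.3% and 10.7%, all genes 18.3% and 15.5%). After 4 days, 14 were higher and 4 lower (50% and 14.3%, all genes 19.4% and 18.6%), and after 5 days 15 and 1 (53.6% and 3.6%, all genes 20.2% and 18.6%). The lists hold 2 to 7 genes each, and no test compared them with each other or with all genes.

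The list of the import motor, which pulls precursors into the matrix, included Romo1. It had 2 of 7 genes higher and 1 lower after 6 hours, not far from the shares over all genes (21.5% and 21%). After 5 days 6 were higher and none lower (all genes 20.2% and 18.6%). Pam16, a regulator of the motor, changed most in that list, by 0.79 after 6 hours and 1.35 after 5 days, when it stood at 88.7 against 34.8 CPM (edgeR adjusted p = 1.51e-07). Among matrix chaperones, which fold imported proteins, 3 of 5 were higher after 6 hours and 1 was lower, the latter close to the share over all genes. At 5 days 2 were higher and none lower. Hspe1, the co-chaperonin, changed most in that list after 6 hours (1.18, from 118.5 to 272 CPM) and Dnaja3, a matrix cochaperone, after 5 days (1.11), while Hscb, of iron-sulfur cluster assembly, was lower after 6 hours (-0.96).

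In outer membrane sorting and insertion, 1 of 6 genes was higher after 6 hours, close to the share over all genes (21.5%), and 4 after 5 days (all genes 20.2%). None was lower at any duration, and Mtx3 was at 0.44 and 0.81. In oxidative import into the intermembrane space, 2 of 3 and then 1 of 3 were higher (all genes 21.5% and 20.2%) and none lower. Chchd4, the import oxidoreductase on which small TIM proteins depend, was at 0.57 and 0.72. Of the 5 processing peptidases, 1 was higher and 1 lower after 6 hours, close to the shares over all genes, and 2 were higher and 1 lower after 5 days, with Immp1l at 0.55 after 6 hours and Immp2l at -0.70 after 5 days. Neither gene of inner membrane insertion was called. Timmdc1, whose name resembles the translocases but which encodes an assembly factor of complex I, is not counted among the 28 genes and was higher at every duration (0.53 after 6 hours and 0.72 after 5 days).

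Markers of cell types were compared with room temperature as well. Over all genes, 16.4% to 21.5% were called higher and 14.7% to 21% lower at a duration. A count of 1 in 5 markers lies close to these shares. The summed level of 5 brown adipocyte genes, Ucp1 among them, was 5725 to 7664 CPM in the controls and 10340 to 14640 CPM after 5 days. Only 1 or 2 of the 5 were called higher at a duration, and 1 to 3 lower, so the sum does not stand for each of these genes. Of 5 genes of adipocytes in general, 3 were lower after 4 days (summed level 7634 to 8414 against 9559 to 12750 CPM) and 1 or 2 at the other durations, with 1 higher after 5 days. Endothelial genes had 2 of 4 higher and 1 lower after 6 hours (summed level 394 to 491 against 230 to 282 CPM), 3 higher and none lower after 1 day (458.5 to 547.3 CPM) and after 2 days (317 to 469 CPM), and none higher and 1 lower after 5 days. Erythroid genes had 3 of 5 higher after 6 hours, 4 after 1 day and 3 after 5 days, when their summed level was 2701 to 5005 CPM against 1826 to 2344 CPM in the controls. Stromal genes had 3 of 4 lower after 1 day (336 to 440 against 496 to 722 CPM), and the tested genes of proliferating cells (1 after 2 days, 2 from then on) were higher from 2 days. Macrophage genes had 2 or 3 of 6 higher from 3 to 5 days, and 5 of 8 skeletal muscle genes were lower after 5 days. Their part in the changes of the translocase genes was not tested. The translocase genes together took 0.215% to 0.239% of nuclear counts (genes of the mitochondrial genome and the abundant Gm42418 left out) in the controls. They took 0.251% to 0.285% after 6 hours, 0.247% to 0.254% after 1 day, 0.245% to 0.268% after 4 days and 0.252% to 0.275% after 5 days, above every control. After 2 days (0.230% to 0.266%) and 3 days (0.228% to 0.262%) the range overlapped the controls. As a share of all counts, with the mitochondrial genome and Gm42418 kept in, the range overlapped the controls at every duration. In CPM without TMM scaling, that share was 1034 to 1242 in the controls. It was 1166 to 1419 after 6 hours, 1085 to 1233 after 1 day and 1198 to 1346 after 5 days. Gm42418 alone took 8.92% to 11.3% of all counts in the controls and 7.81% to 16.3% in the cold mice.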

How the data were processed

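The study sequenced polyadenylated RNA of whole iBAT from 35 mice with the QuantSeq 3′ FWD kit. Reads of 76 bases were aligned by the authors with STAR 2.6.1d and counted per gene with HTSeq 0.11.2 on GRCm38 (annotation GRCm38.98). The strand setting is not given in the sources used here. The authors deposited raw counts, in 1 table of whole numbers without normalization.

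Each cold group was compared with room temperature, and 1 and 5 days with 6 hours, in separate fits with edgeR 4.0.16 in R 4.3.3 (TMM scaling, the filterByExpr minimum, and the quasi-likelihood test with p-values adjusted by Benjamini-Hochberg over all genes tested, threshold 0.05). Ratios of gene pairs were tested by exact two-sided permutation over 252 splits of mice, on CPM plus 1, where both genes averaged at least 10 counts (Python 3.11.15, scipy 1.17.1). Alternatives were DESeq2 1.42.0, RLE or library size scaling, no filter, other pseudocounts, leaving out each mouse, a replicate block and 1 fit of all groups. The fits were tested on simulated data. Replicate pairs within groups differed by more than sampling noise (chi-square per degree of freedom at least 5.06 over 70 pairs). At these depths, 1 CPM is about 4 to 6 counts.

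The genes and lists were chosen with earlier results of these data known. Values in each mouse are given for the 3 called genes with the largest change in each direction after 6 hours and after 5 days, and for pairs whose ratio passed. Those of Tomm70a after 6 hours were added after they were seen. From each pathway list, the called gene with the largest change at those times is named. The 3′-end words are the 76-base sequences in the last 400 bases of a gene's transcripts (GENCODE M21). Promoters come from RefSeq (GRCm38.p6).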

Additional observations from a re-analysis of the deposited data

Results flagged for a closer look

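Among 147 groups of 5 mice (21 genes, 7 groups), 13 values stood far from the rest of their group by Dixon's criterion (gap over range above 0.71), where chance gives about 1 in 20 groups. Of these, 4 were of 1 mouse, number 5 after 6 hours of cold, with Timm9 at 117.8 CPM (next 82.0), Tomm70a at 127.8 CPM (next 95.5) and Tomm5 at 19.1 CPM (next 11.8), and it was also the lowest for Timm10b at 43.5 CPM (next 57.4). Mouse 1 after 2 days was the lowest for Timm10 at 41.4 CPM (next 54.7) and for Tomm20 at 6.36 CPM (next 11.1), and Timm22 had its lowest value of that group, 34.8 CPM (next 41.7), in mouse 4. Mouse 4 after 3 days was the highest for Timm29 at 22.2 CPM (next 20.4) and for Tomm34 at 8.50 CPM (next 5.18). The rest were Timm13 at 135.8 CPM in mouse 4 after 5 days (next 116.8), Timm8b at 62.0 CPM in control mouse 1 (next 48.2), Tomm40 at 46.8 CPM in mouse 5 after 4 days (next 41.2) and Tomm5 at 13.5 CPM in mouse 2 after 1 day (next 9.69).

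Some changes differed between cold durations in a direct test (edgeR adjusted p below 0.05). Between 6 hours and 5 days these were Timm21 (0.94), Timm44 (0.38), Timm8b (0.45), Timm9 (-0.51) and Tomm70a (-0.44). Between 6 hours and 1 day they were Timm21 (0.60), Timm44 (0.33), Timm13 (-0.43), Tomm7 (-0.32) and Tomm70a (-0.37), all as log2 fold changes of the later against the earlier time.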

How the results depend on the processing

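Of 61 calls of translocase genes against room temperature, DESeq2, RLE size factors, leaving out genes of the mitochondrial genome with Gm42418, and 1 fit of all 7 groups each kept 61, and no filter kept 58. Scaling by library size alone kept 44 (37 of the 42 calls of the genes higher at all durations, the losses being Timm10b after 6 hours, 2, 3 and 5 days and Timm10 after 2 days). Under it the counts moved by over 1.5 times to 4 lower after 1 day, 5 higher and 2 lower after 2 days, 1 lower after 3 and after 4 days, 7 higher and 1 lower after 5 days, and 1 higher for 1 day against 6 hours. Without the filter, none was lower after 1 day and none higher for 1 day against 6 hours. No called gene turned its direction under any alternative run.

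Leaving out 1 mouse at a time gave 11 to 12 higher and 2 to 3 lower after 6 hours, 9 to 10 and 1 to 1 after 1 day, 8 to 10 and 0 to 0 after 2 days, 7 to 8 and 0 to 0 after 3 days, 7 to 9 and 0 to 0 after 4 days, and 10 to 12 and 0 to 0 after 5 days. It gave 0 to 2 higher and 1 to 4 lower for 1 day against 6 hours, where the counts moved by over 1.5 times without any 1 of 9 mice (higher) or 4 mice (lower), and 3 to 4 higher and 2 to 2 lower for 5 days against 6 hours. Of the 30 pair tests, 16 to 21 passed. With a pseudocount of 0.5 CPM 18 passed, and with 5 CPM 24 passed, 5 of the added ones for Timm23 to Timm22, where the low level of Timm23 makes the ratio depend on the pseudocount.

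Replicate numbers did not pair mice, since deviations of same-numbered mice correlated at -0.249 to 0.131. A replicate block kept 58 of the 61 calls, left 0 higher and 1 lower for 1 day against 6 hours, and 0 of the 30 pair tests, where the smallest p that 5 pairs allow (0.0625) is above the threshold. Changes in Timm23, Tomm20, Tomm34 and Tomm5, with the fewest counts among the tested genes, are the least precisely measured (SE 0.20 to 0.42 on the log2 scale).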
